A study of Rattus norvegicus with 14 samples.

Results

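The extreme-coverage cytosines of this series are 2395 CpG cytosines of the rat genome at which the control libraries held at least 200 sequencing reads each on average. They were chosen from column values of the deposited files: a cytosine on chromosomes 1 to 20 had to be listed in all 4 control libraries with a mean of 200 reads or more, and in at least 3 libraries of each other group. They made up 0.582% of the 411464 cytosines that met the same listing rule, and 9 further cytosines at 200 reads or more missed it. Their coverage is therefore what chose them and is given as a description, while their methylation played no part in the choice. For comparison, 364140 cytosines had a mean of 10 to 50 control reads and are called ordinary-coverage cytosines here. Whether the extreme-coverage cytosines lie in repeats was not tested, because genome sequence and annotation of the assembly used, mRatBN7.2, were not used here.

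The study measured DNA methylation in oesophagus of male rats aged 8-9 weeks by reduced-representation bisulfite sequencing. Non-surgical controls (NSC, 4 libraries) were full-thickness oesophagus. Day 1 (5 libraries) was host tissue punched from within 2 mm of the defect margin, 1 day after surgical repair with a bi-layer silk fibroin scaffold, an acellular graft. Week 1 (4 of 5 samples analysed here) was new tissue from the graft area on day 7. The groups thus differ in the site sampled as well as in time, and all are bulk tissue, in which a change of methylation within cells and a change in the mix of cells cannot be told apart. The labels do not say that libraries of a group came from separate animals.

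In reduced-representation bisulfite sequencing the enzyme MspI cuts DNA at CCGG whether or not the inner CpG is methylated, short fragments are kept, and bisulfite then turns unmethylated cytosine into a base read as thymine while methylated cytosine is still read as cytosine. Reads pile up at fragment ends, so a covered region is short and its cytosines share reads. Sequence that is present in more copies in an animal than in the assembly collects the reads of every copy at one address, and its methylation level is then an average over copies. CpG methylation in mammals is high over most of the genome and low in CpG islands at many promoters, while repeats are mostly methylated.

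Coverage of the extreme-coverage cytosines ran from a mean of 200 reads in the controls to 4315, with a median of 303 beside 19.25 over all tested cytosines. Of the 2395, 1179 (49.2%) lay between 200 and 300 reads, 492 reached 500, 84 reached 1000 and 12 reached 2000. The 328 cytosines just inside it, at 200 to 220 reads, had mean methylation of 68.7% in NSC, 73.4% at day 1 and 70.4% at week 1. The 405 just outside, at 180 to 200 reads, had 69.2%, 74.2% and 72.0%.

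The high coverage was shared by 12 of the 13 libraries. Median reads at extreme-coverage cytosines were 378, 357, 261 and 225 in NSC replicates 1 to 4. Day 1 replicates 1 to 5 had medians of 222, 15, 150, 201 and 263 reads. Week 1 replicates 1 to 4 had 226, 74, 75 and 154. Set against each library's own mean over listed cytosines of chromosomes 1 to 20, these medians were 22.1 to 33.2 times the mean in NSC and 9.65 to 22.8 times in week 1. They were 17.9 to 27.3 times in day 1 apart from replicate 2, which stood at 2.29 times. Day 1 replicate 2 also had the fewest listed reads of all, 9676493 against up to 49782600 in NSC replicate 1, and it did not list 445 of the extreme-coverage cytosines. The other libraries missed between 0 and 17.

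**Figure D1:**
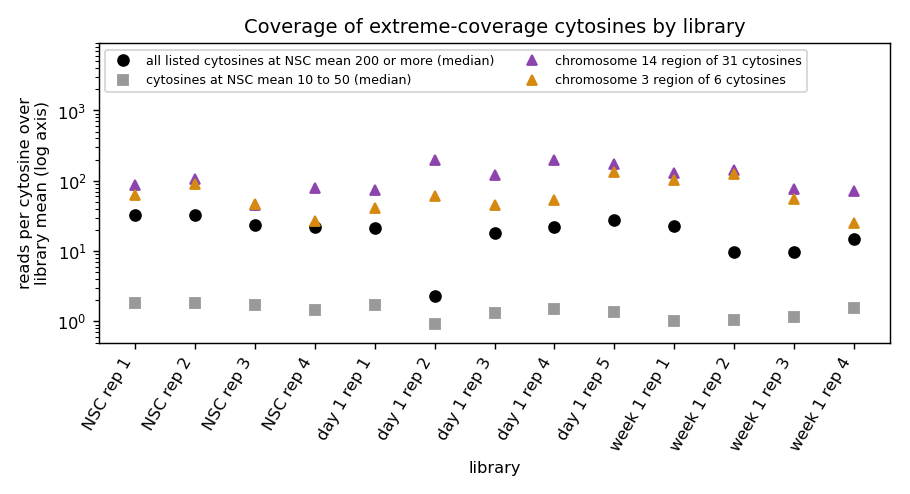
Reads per cytosine divided by the library's mean over listed cytosines of chromosomes 1 to 20 (log axis), for the 13 libraries on the horizontal axis: medians of extreme-coverage cytosines (circles) and ordinary-coverage cytosines (squares), and the 2 regions whose lowest library stood highest (triangles). Day 1 replicate 2 drops to 2.29 at the extreme-coverage cytosines, while the chromosome 14 region stands at 195.7 there.

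The drop in day 1 replicate 2 was spread over nearly every region. The 2395 cytosines formed 1065 regions, a region being a run of extreme-coverage cytosines at gaps of up to 300 bp. Relative to its own mean, day 1 replicate 2 was the lowest of the 13 libraries in 1018 regions (95.6%) and stood under 3 times its mean in 808 (75.9%). In 7 regions it was at or above the lowest control. In 3 of these the lowest control was itself low, at 0.490, 1.02 and 1.27 times its mean, and day 1 replicate 2 stood at only 1.83, 2.90 and 5.27 times. The other 4 stood high. One was the largest region of all, at 46237247 to 46237802 on chromosome 14, with 31 cytosines. There day 1 replicate 2 reached 195.7 times its mean, against 45.8 times in the lowest control. A neighbouring region on chromosome 14, at 46241018 to 46241063, showed 46.1 times against 14.4. On chromosome 3 the region at 2222945 to 2223279 showed 61.3 times against 26.8, and the one at 2227965 to 2227973 showed 22.5 times against 20.9. In this library most regions thus lost their high relative coverage and 4 of these 7 kept it.

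Regions that stayed at 10 or more times the mean in all 13 libraries numbered 21, with 123 cytosines on 11 chromosomes. This group was formed after the values were seen. Of the 21, 14 (66.7%) lay within 100 kb of another extreme-coverage region, against 183 (17.5%) of the other 1044. Their methylation in NSC had a median of 49.7%, against 80.8% in the other regions. Under 10% stood 9 of them (42.9%) against 61 (5.84%), and at 90% or more 0 against 269. Differences from NSC in the 21 had medians of 0.184 points at day 1 and 0.104 points at week 1, against 4.21 and 1.42 points in the other regions. The 2 sets differ in control level too, so this contrast cannot be assigned to coverage. The 70 extreme-coverage regions under 10% in NSC had medians of 0.0889 points at day 1 and 0.0636 points at week 1. No test was made of these contrasts, since the group was chosen on the same libraries.

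Extreme-coverage cytosines were found on all 20 chromosomes, and no chromosome held most of them. The share of the 2395 on a chromosome, divided by that chromosome's share of all tested cytosines, ran from 0.691 on chromosome 17 to 1.66 on chromosome 14. Chromosome 14 held 151 of them in 47 regions, 9.64 per 1000 cytosines tested there. Chromosomes 3 (1.20) and 20 (1.19) came next. Since neighbouring cytosines share reads, a single large region moves these ratios: the one region of 31 cytosines is part of the count on chromosome 14.

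Most regions were small, and most had no other region within 100 kb. Of the 1065, 493 (46.3%) were a single cytosine, 419 held 2 to 3, and 24 held 8 or more. Those 24 carried 268 cytosines (11.2%). Small size was not particular to this class: of 118169 ordinary-coverage regions 37.4% were a single cytosine, and the median was 2 cytosines in both classes. Regions with 2 or more cytosines had a median span of 48 bp. The longest spanned 556 bp, and 1051 regions (98.7%) spanned 300 bp or less, the length limit of the fragments kept. The next region lay at a median distance of 703871 bp. Another lay within 10 kb for 69 regions (6.48%), and within 100 kb for 197 (18.5%). Of 2469 windows of 1 Mb, 803 held a region, and 614 of those held exactly one. Distances and windows were not set beside an even scatter or beside ordinary-coverage regions. They therefore do not show whether the regions cluster more or less than such a scatter would.

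Tested cytosines near the regions but outside the class had lower coverage. They include cytosines that lie between members of a region, so the values do not measure its edges alone. In 808 regions (75.9%) a tested cytosine outside the class lay within 300 bp, and the median coverage of such flanking cytosines was 85 reads, a region being 3.45 times its flank at the median. In 202 regions the flank had a median under 50 reads, and in 312 it had 100 or more. The rule itself keeps these cytosines under 200 reads, so only the size of the step is informative. It was not set beside a step at ordinary-coverage regions.

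A few stretches held several regions. The 1 Mb window with the most regions, on chromosome 16 from 20000001 to 21000000, held 10 regions with 15 cytosines between 20026021 and 20302688. NSC methylation of these 10 ran from 49.7% to 89.7%, and 0 were called at day 1 or week 1 by the test described below. It includes the cytosine with the most reads of all, at 20254301, with a mean of 4315. Next came 2 windows with 7 regions each. One was chromosome 1 from 55020180 to 55069704, 49525 bp with 7 regions and 24 cytosines at 68.1% to 88.6% in NSC, again with 0 called. The other was chromosome 3 from 1059130 to 1554016, with 16 cytosines at 64.1% to 87.8% in NSC. One of its regions, at 1553812 to 1554016, rose from 64.1% in NSC to 78.5% at day 1, with an adjusted p of 0.0403 by edgeR's quasi-likelihood test, and stood at 71.1% at week 1. Further along chromosome 3, 5 regions with 26 cytosines lay between 2222945 and 2381456. One of them, at 2265751 to 2265917, rose from 37.8% in NSC to 60.8% at week 1, with an adjusted p of 0.0415 by edgeR's quasi-likelihood test, and stood at 43.3% at day 1.

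In control oesophagus the extreme-coverage cytosines were more often highly methylated than ordinary ones. Their mean was 65.9% and their median 79.2%, against 53.1% and 66.6%. Because a percentage from few reads scatters more, levels were compared after drawing 10 reads per cytosine from each NSC library. At this equal depth 13.9% of 2386 extreme-coverage cytosines stood under 10% methylation, against 28.9% of 220303 ordinary ones. At 70 to 90% stood 29.7% against 22.3%, and at 90 to 100% stood 32.5% against 26.2%. Shares at 30 to 70% were 18.7% and 17.3%. With all reads the corresponding shares under 10% were 13.99% and 29.1%. These shares describe cytosines that share reads and libraries, and no test was made of them. The level difference depends on which cytosines enter. Among cytosines with 10 or more reads in all 13 libraries, 1385 extreme-coverage and 2226 ordinary ones, the NSC means were 59.4% and 60.4%. With 20 or more reads, 733 and 112 cytosines, they were 50.9% and 70.01%.

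**Figure D2:**
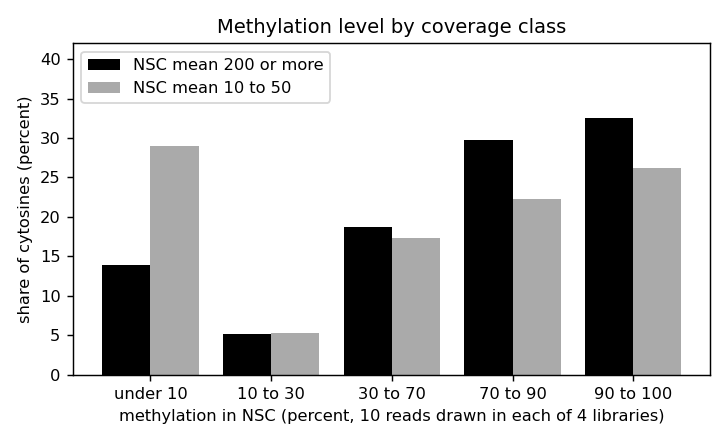
Share of cytosines (percent, vertical axis) in 5 classes of NSC methylation (percent, horizontal axis) after 10 reads were drawn per cytosine and library, for extreme-coverage (black) and ordinary-coverage cytosines (grey). The under 10% class holds 13.9% of the first and 28.9% of the second.

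Unmethylated extreme-coverage regions were few but held more cytosines than the others. The 70 regions under 10% in NSC (6.57% of 1065) held 4.30 cytosines on average, and 15.7% of them were a single cytosine. The 726 regions at 10 to 90% held 2.10 on average and 49.4% were single, while the 269 regions at 90% or more held 2.12. Spans were similar: regions with 2 or more cytosines had medians of 48, 53 and 40 bp at these 3 levels, lowest level first. Of the 5 regions with the most cytosines, 3 were nearly unmethylated in every library. The region on chromosome 5 at 148399135 to 148399384, with 17 cytosines, stood at 0.170% ± 0.0575 in NSC (SD, n = 4), 0.219% ± 0.0829 at day 1 (n = 5) and 0.185% ± 0.0676 at week 1 (n = 4). The one on chromosome 4 at 76772832 to 76773142, with 16 cytosines and a mean of 1311 reads, stood at 0.372%, 0.396% and 0.320%. The one on chromosome 14 at 3338771 to 3338993, with 17 cytosines, stood at 2.39%, 2.56% and 2.76%. None of the 3 differed between groups beyond the spread, with adjusted p of 0.522 or more by edgeR's quasi-likelihood test at day 1 and 0.695 or more at week 1.

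The other 2 of the 5 regions with the most cytosines were methylated. The chromosome 14 region of 31 cytosines stood at 87.0%, 86.5%, 87.6% and 86.6% in the NSC replicates. Day 1 replicates had 90.9%, 90.7%, 90.3%, 90.8% and 90.8%. Week 1 replicates had 88.8%, 89.8%, 88.5% and 90.02%. Every day 1 and week 1 library was above every control, on between 15823 and 56956 reads summed over the region's cytosines. The day 1 difference of 3.78 points had an adjusted p of 0.00675 by edgeR's quasi-likelihood test, and it stayed under the 10 points required for a call. The week 1 difference of 2.37 points had an adjusted p of 0.225. Among its 31 cytosines NSC levels ran from 66.6% to 97.4%, and 27 were higher at day 1. The region on chromosome 1 at 55035475 to 55035895, with 14 cytosines, stood at 80.5% ± 1.03 in NSC (n = 4), 83.6% ± 0.635 at day 1 (n = 5) and 79.9% ± 2.39 at week 1 (n = 4), with adjusted p of 0.476 and 0.994.

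A CpG has a cytosine on each strand, and both were rarely tested in either class. The partner was tested for 211 extreme-coverage cytosines (8.81%) and for 7.55% of ordinary ones, and in 23 pairs both partners were in the class. In those 23 the strands differed by a median of 1.59 points, with 0 pairs over 20 points. In 12360 pairs of ordinary cytosines the median was 3.56 points, and 604 (4.89%) exceeded 20. With 10 reads drawn the medians were 7.5 points over the 23 pairs and 5 over 4656 ordinary pairs, both wider than with all reads.

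In points, the spread between libraries was smaller than at ordinary cytosines, which hold fewer reads. The SD of an extreme-coverage cytosine over the NSC libraries had a median of 2.60 points, against 1.80 from counting reads alone. Ordinary cytosines had 6.37 against 5.54. Divided by the counting value, the spread was larger at extreme-coverage cytosines, 1.45 against 1.15. Among cytosines at 30 to 70% in NSC, where counting error is largest, the median SD was 5.02 points at 371 extreme-coverage cytosines and 15.2 at 4693 ordinary ones. Counting alone gives 2.97 and 10.3 there, and the ratios were 1.69 and 1.47. At day 1 the extreme-coverage values at that level were 8.25 against 5.65, and at week 1 6.37 against 4.40. Ordinary ones had 14.3 against 10.8 at day 1 and 14.5 against 11.9 at week 1. Counting values treat reads as separate molecules, though the reads carry no molecular identifiers.

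Mean methylation of the extreme-coverage cytosines was higher at day 1 than in controls, with week 1 in between. Over the 1926 listed in all 13 libraries, the NSC replicates averaged 63.5%, 63.9%, 63.7% and 63.7%. Day 1 replicates averaged 68.8%, 67.5%, 67.8%, 68.7% and 67.4%. Week 1 replicates averaged 66.0%, 66.6%, 64.9% and 67.0%. No 2 groups overlapped. Day 1 exceeded NSC by 4.34 points (group SDs 0.68 and 0.19), with an exact two-sided permutation p of 0.0159, adjusted to 0.0238 over 6 tests. Week 1 exceeded NSC by 2.44 points, with an exact permutation p of 0.0286 (adjusted 0.0343). Week 1 differed from day 1 by -1.91 points, with an exact permutation p of 0.0159 (adjusted 0.0238). These p-values are the smallest that groups of these sizes allow. The size of the differences depends on the summary: day 1 exceeded NSC by 2.03 points at cytosines with 20 or more reads in all libraries, by 6.64 with reads pooled and by 7.41 with medians. For week 1 these were 0.580 points, with an exact permutation p of 0.229, 3.98 and 4.01.

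Ordinary cytosines moved the same way. Over the 26375 listed in all 13 libraries they averaged 48.2% in NSC, 51.6% at day 1 and 50.3% at week 1, differences of 3.44 and 2.16 points. Taken per library, the extreme-coverage mean exceeded the ordinary mean by 15.53 points ± 0.15 in NSC (n = 4), 16.43 ± 0.15 at day 1 (n = 5) and 15.80 ± 0.13 at week 1 (n = 4). This gap was itself negative at higher read minima, at -0.950 in NSC and -1.46 at day 1 with 10 or more reads, and at -19.1 and -21.5 with 20 or more. Over the 13-library set, day 1 minus NSC in the gap was 0.904 points, with an exact permutation p of 0.0159 (adjusted 0.0238). Week 1 minus NSC in the gap was 0.272 points, and week 1 minus day 1 was -0.632 points. Their exact permutation p was 0.0571 (adjusted 0.0571) and 0.0159 (adjusted 0.0238). The sign of the day 1 difference in the gap changed with the cytosines that entered and with the summary. Without day 1 replicate 2, over cytosines listed in the other 12 libraries, it was -0.123 points. At 20 or more reads it was -2.40 points. Over the 13-library set it was -2.15 points with reads pooled and -2.84 points with medians. The data therefore give no direction for a difference between the classes in how far the mean moved.

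**Figure D3:**
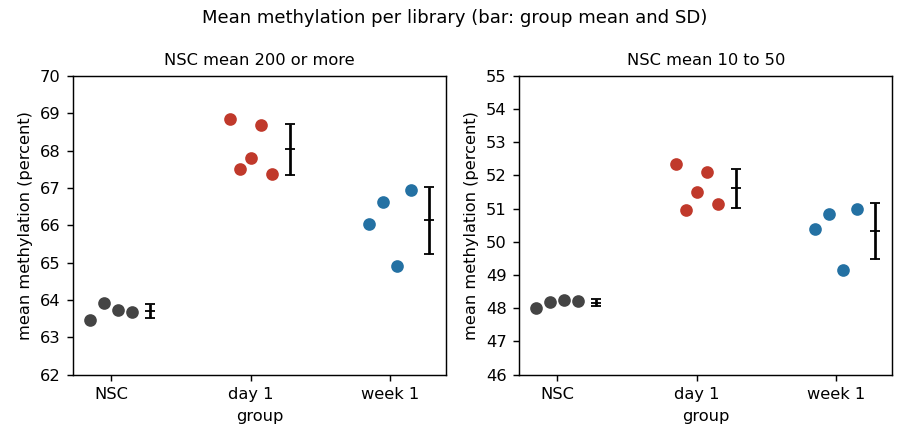
Mean methylation (percent, vertical axes starting above 0) per library by group for extreme-coverage cytosines (left, 1926) and ordinary-coverage cytosines (right, 26375); points are libraries, bars the group mean and SD. On the left the NSC libraries lie at 63.5 to 63.9, week 1 at 64.9 to 67.0 and day 1 at 67.4 to 68.8.

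The difference was found mostly at intermediate levels. To keep the level classes apart from the controls used in the difference, classes were formed from NSC replicates 1 and 2 and differences taken against replicates 3 and 4. Extreme-coverage cytosines at 30 to 70% (379) were 12.2 points higher at day 1 and 9.33 points higher at week 1. Those at 10 to 30% (93) were 6.79 and 5.18 points higher, and those at 70 to 90% (609) were 4.20 and 1.33 points higher. Under 10% (317 cytosines) the differences were 1.25 and 0.858 points. At 90 to 100% (528) they were 0.327 and -0.763 points. Ordinary cytosines at 30 to 70% were 9.57 and 7.18 points higher, and at 10 to 30% 9.25 and 7.80 points higher. No test was made of these class values.

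Single regions were tested with edgeR's quasi-likelihood test on methylated and unmethylated counts across all 142640 regions of all coverage classes. Calls required group means at least 10 points apart and a p under 0.05 after Benjamini-Hochberg adjustment. At day 1, 188 of the 1065 extreme-coverage regions (17.7%) were called, 151 higher and 37 lower than NSC. Over all regions 5.95% were called, 4.51% higher and 1.44% lower. At week 1, 108 (10.1%) were called, 78 higher and 30 lower, beside 2.92% of all regions, 2.07% higher and 0.852% lower. The median difference over the 1065 was 4.07 points at day 1 and 1.34 points at week 1, beside 4.20 and 2.22 points over all 142640 regions, so the higher share of calls came without a larger median difference. Control libraries did not overlap with day 1 libraries in 399 regions (37.5%), beside 15.8% of all regions, and with week 1 libraries in 325 (30.5%), beside 13.4%.

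At equal depth the share called was close to that of all regions. With 10 reads drawn per cytosine and library, 53 of 1057 (5.01%) were called at day 1 beside 5.67% of all regions, 35 higher and 18 lower beside 4.24% and 1.43%. At week 1, 32 (3.03%) were called beside 3.57%, 17 higher and 15 lower beside 2.53% and 1.05%. With the deposited reads the share called rose with coverage class by class, from 2.27% of regions under 10 reads to 5.96% at 10 to 50 and 9.57% at 50 to 200 at day 1. Per cytosine in place of per region, 311 of 2395 (12.99%) were called at day 1 beside 1.65% of all cytosines, and 40 of 2371 (1.69%) beside 1.23% with 10 reads drawn. At week 1 these were 178 (7.43%) beside 0.679%, and 23 (0.970%) beside 0.578%. The balance of directions per cytosine also changed. At day 1 it was 247 higher and 64 lower with all reads, beside 1.09% and 0.558% of all cytosines. With 10 drawn at day 1 it was 20 and 20, beside 0.712% and 0.513%. At week 1 it was 124 higher and 54 lower with all reads, beside 0.423% and 0.256% of all cytosines. With 10 drawn it was 5 higher and 18 lower, beside 0.328% and 0.250%. The share of extreme-coverage regions called therefore stood near the background at 10 reads and well above it with all reads.

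**Figure D4:**
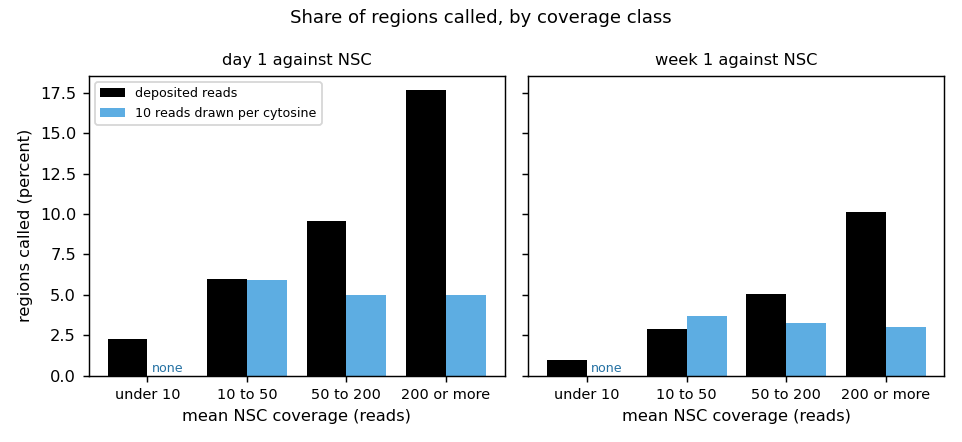
Share of regions called (percent, vertical axis) against NSC by class of mean NSC coverage (reads, horizontal axis), at day 1 (left) and week 1 (right), with the deposited reads (black) and with 10 reads drawn per cytosine (blue; no region under 10 reads could be drawn). Black bars rise to 17.7 and 10.1 in the class of 200 or more, where blue bars stand at 5.01 and 3.03.

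Called regions lay mainly at intermediate control levels, in both directions, which the rule for a call partly fixes. As a call needs 10 points, regions above 90% in NSC cannot be called higher, nor those under 10% lower. The levels come from the same NSC libraries as the differences. Shares called of all regions at the same levels were not computed. The 151 regions higher at day 1 had a median of 62.1% in NSC and 85.3% at day 1, and they lay on 20 chromosomes. The 37 lower regions had medians of 54.7% and 18.7% and lay on 16 chromosomes. At week 1 the 78 higher regions went from 57.5% to 85.0% at the median, and the 30 lower ones from 61.3% to 21.5%. Among the 257 regions at 30 to 70% in NSC, 86 rose and 23 fell at day 1. Among the 70 under 10% 4 rose, and among the 269 at 90% or more 4 fell.

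The 3 largest day 1 increases without overlap took sparsely methylated sites to high levels. The pair of cytosines at 73595915 to 73595928 on chromosome 10 stood at 17.2%, 17.5%, 24.9% and 18.5% in NSC. Day 1 replicates had 78.5%, 83.3%, 69.5%, 82.4% and 60.6%. Week 1 replicates had 64.1%, 58.8%, 28.8% and 70.8%. All libraries after surgery were above all controls, week 1 replicate 3 by the least. The day 1 increase was 55.3 points, with an adjusted p of 1.27e-06 by edgeR's quasi-likelihood test, and the week 1 increase 36.1 points, with an adjusted p of 0.00264. Day 1 replicate 2 rests on 12 reads here, summed over both cytosines.

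A cytosine at 56713174 on chromosome 18 stood at 30.4% ± 2.66 in NSC (n = 4), 81.0% ± 5.67 at day 1 (n = 5) and 67.7% ± 8.04 at week 1 (n = 4). Controls ran from 28.2% to 34.1% and all other libraries from 56.7% to 88.9%, with no overlap. Adjusted p was 7.58e-06 at day 1 and 0.0051 at week 1. A cytosine at 93224884 on chromosome 13 rose from 20.1% ± 1.46 to 66.9% ± 7.25 at day 1 and 56.9% ± 8.48 at week 1. Its adjusted p was 6.77e-05 and 0.00391 by the same edgeR test. Day 1 replicate 2 rests on 9 reads there and on 26 at the chromosome 18 cytosine.

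The largest decreases were the same 3 regions at both times. On chromosome 2, the 3 cytosines at 185531240 to 185531256 stood at 82.0%, 80.6%, 83.5% and 76.8% in NSC. Day 1 replicates had 18.4%, 10.1%, 24.3%, 11.9% and 20.5%. Week 1 replicates had 13.6%, 11.3%, 11.7% and 19.6%. Methylation fell by 63.7 points at day 1 and fell by 66.7 points at week 1, with adjusted p of 6.22e-10 and 2.35e-10 by edgeR's quasi-likelihood test. Reads summed over the 3 cytosines ran from 106 to 771 per library, so no library is thinly covered here.

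A cytosine at 20501954 on chromosome 12 fell from 89.2% ± 2.81 in NSC (n = 4) to 29.1% ± 12.2 at day 1 (n = 5) and 26.8% ± 2.61 at week 1 (n = 4), with adjusted p of 3.61e-07 and 2.73e-07 by the edgeR test. On chromosome 5, the 3 cytosines at 49670630 to 49670687 fell from 69.9% ± 7.73 to 16.7% ± 12.7 and 12.3% ± 4.52, with adjusted p of 2.42e-06 and 7.12e-07. At both regions controls and all later libraries did not overlap. Day 1 replicate 2 rests on 8 reads at the chromosome 12 cytosine and on 30 summed over the 3 on chromosome 5.

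The 3 largest week 1 increases without overlap between groups were also called at day 1. The cytosine at 196226129 on chromosome 2 stood at 15.3%, 4.07%, 21.4% and 29.4% in NSC and at 67.6%, 57.9%, 67.6% and 76.2% at week 1. The 4 day 1 libraries that list it had 76.3%, 31.2%, 79.0% and 66.8%. Its week 1 increase was 49.8 points, with an adjusted p of 0.000708 by edgeR's quasi-likelihood test. The cytosine at 125329108 on chromosome 7 stood at 14.7% in NSC, 60.6% at day 1 and 64.2% at week 1, with adjusted p of 0.000108 and 0.000148. The cytosine at 159686311 on chromosome 5 stood at 33.2%, 76.8% and 74.2%, with adjusted p of 0.000516 and 0.00753 by the same edgeR test. Day 1 replicate 2 rests on 10 reads at the chromosome 7 cytosine and on 9 at the chromosome 5 one. One called week 1 increase was larger, 57.0 points with an adjusted p of 0.00507, but its groups overlapped. This cytosine, at 29878469 on chromosome 18, was named after its values were seen. It stood at 42.2%, 0%, 64.8% and 0% in NSC. The 4 day 1 libraries that list it had 0.467%, 96.1%, 95.8% and 52.0%, and week 1 replicates 93.5%, 84.7%, 58.4% and 98.5%.

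**Figure D5:**
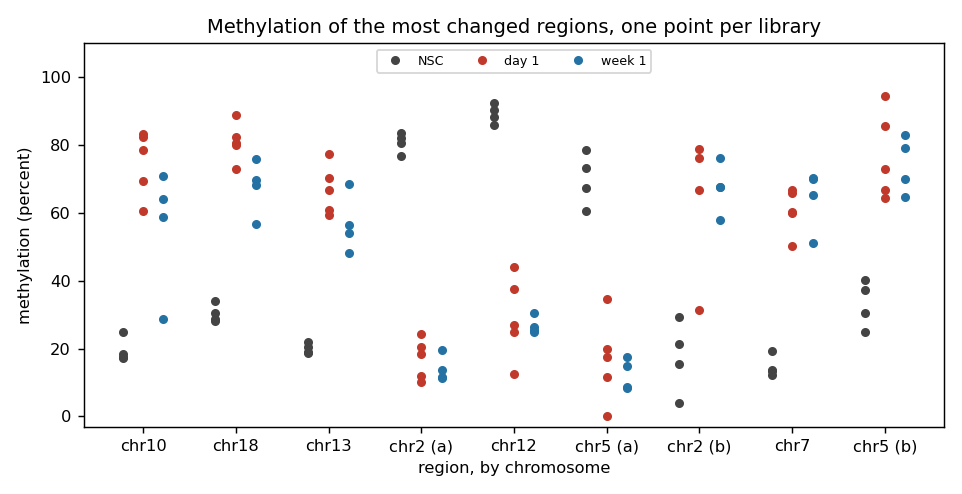
Methylation (percent, vertical axis) of the 9 extreme-coverage regions with the largest increases and decreases against NSC (horizontal axis, by chromosome), one point per library, NSC in grey, day 1 in red and week 1 in blue. The chromosome 2 region marked (a) falls from 76.8 to 83.5 in NSC to at most 24.3 afterwards.

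With 10 reads drawn, the day 1 calls of all these increases and decreases held in the edgeR test except that on chromosome 7. The week 1 calls on chromosomes 10, 18 and 7, of the chromosome 2 increase and of the chromosome 5 increase did not pass. Their differences stayed large: the lowest over all alternatives was 31.1 points on chromosome 10, 34.5 on chromosome 18, 45.0 on chromosome 7, 45.3 on chromosome 2 and 38.0 on chromosome 5, with highest adjusted p of 0.0548 to 0.0941. The chromosome 7 day 1 difference was 33.5 points with 10 reads drawn, with an adjusted p of 0.161.

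The regions with the most reads per cytosine mostly changed little. The cytosine at 20254301 on chromosome 16 stood at 75.2% ± 0.659 in NSC (n = 4), 77.3% ± 1.60 at day 1 (n = 5) and 76.9% ± 4.66 at week 1 (n = 4), with adjusted p of 0.807 and 0.903 by the edgeR test. The cytosine at 149212388 on chromosome 3, with a mean of 2297 reads, went from 89.0% to 94.2% and 95.5%. Its week 1 difference of 6.50 points had an adjusted p of 0.0211 and was below the 10 points of a call. The 3 cytosines at 68999456 to 68999567 on chromosome 3 stood at 90.4%, 93.7% and 93.0%, and those at 6779967 to 6780062 on chromosome 9 at 84.9%, 88.6% and 83.2%. Adjusted p was 0.117 or more in all 4 of these contrasts.

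One of these most-read sites fell. The cytosine at 81324838 on chromosome 4, with a mean of 1597 reads, stood at 38.9%, 49.5%, 42.1% and 40.9% in NSC. Day 1 replicates had 10.04%, 6.49%, 19.6%, 8.08% and 12.5%. Week 1 replicates had 19.3%, 24.0%, 35.4% and 19.7%. It fell by 31.5 points at day 1, with an adjusted p of 1.11e-05 by edgeR's quasi-likelihood test, and the week 1 difference of -18.3 points had an adjusted p of 0.084. No control overlapped a later library. With 10 reads drawn the day 1 difference was -18.5 points and did not pass the test, with an adjusted p of 0.405.

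Of the 2 regions at intermediate control levels with the most reads, one changed. The 7 cytosines at 149212711 to 149212831 on chromosome 3, which lie 323 bp from the cytosine at 149212388, stood at 73.1%, 67.7%, 73.6% and 64.2% in NSC. Day 1 replicates had 92.6%, 95.2%, 85.9%, 92.0% and 83.9%. Week 1 replicates had 84.3%, 88.3%, 85.0% and 89.1%. Day 1 replicate 2, the highest library, rests on 21 reads summed over the 7 cytosines. All 7 cytosines were higher at both times, and the increases of 20.3 and 17.1 points had adjusted p of 0.00012 and 0.00603 by edgeR's quasi-likelihood test. The 6 cytosines at 24503820 to 24503941 on chromosome 1 stood at 66.6% ± 1.38 in NSC, 73.8% ± 1.64 at day 1 and 69.8% ± 2.58 at week 1, with adjusted p of 0.344 and 0.816. With 10 reads drawn the week 1 increase on chromosome 3 was 18.2 points and did not pass the test, with an adjusted p of 0.0717.

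Between week 1 and day 1 no extreme-coverage region was called. edgeR's quasi-likelihood test called 0 of 1065 beside 0.0021% of all regions. By that test 96 of the 1065 had an unadjusted p below 0.05, beside 8300 of all 142640 regions. With limma and with quasi-binomial regression 0 were called too. Per cytosine, 7 of 2395 were called beside 0.00826% of all cytosines. The groups did not overlap in 71 regions (6.67%), beside 4.34% of all regions. The median difference over the regions was -2.09 points. The largest difference without overlap was at 28212156 to 28212227 on chromosome 15. Its 3 cytosines stood at 29.3%, 39.8%, 35.5% and 34.0% in NSC. Day 1 replicates had 15.8%, 16.7%, 24.3%, 5.56% and 11.3%, and week 1 replicates 36.9%, 46.5%, 54.5% and 36.3%. Week 1 stood 28.8 points above day 1, with an adjusted p of 0.0685 by the edgeR test. From NSC to day 1 it fell by 19.9 points, with an adjusted p of 0.00787, which missed the threshold without day 1 replicate 4, at 0.0699, and with 10 reads drawn, where the difference was -21 points. The cytosine at 11744440 on chromosome 10 stood at 59.3% in NSC, 64.5% at day 1 and 36.3% at week 1. Its difference of -28.2 points between the later groups had an adjusted p of 0.732 by the edgeR test. Day 1 replicate 2 rests on 9 reads there.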

How the data were processed

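Genomic DNA was cut with MspI, fragments above 300 bp were removed, and DNA was bisulfite-converted, per the labels' protocols. The submitters' processing notes name the assembly mRatBN7.2 and the tools methylKit 1.14.2, Bismark 0.23.0, FastQC and Trim Galore, with no role given. The deposited files hold the count of methylated reads and the count of all reads per CpG cytosine and strand, and the authors' methylation in percent. No deposited value is normalized. Each cytosine listed has at least 5 reads. Methylation was recomputed as methylated over all reads.

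Of 14 samples, 13 had a file (NSC 4, day 1 5, week 1 4), with 9676493 to 49782600 reads summed over listed cytosines. Day 1 replicate 2, the shallowest, was kept. Replicates were numbered in accession order. As the labels name no animals, a p-value reflects only how far these samples scatter, and that may be technical. The group and the site sampled cannot be told apart. Counting intervals are not given because reads carry no molecular identifiers.

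Cytosines on chromosomes 1 to 20 were put in classes by mean NSC coverage (under 10, 10 to 50, 50 to 200, 200 or more), and cytosines of a class at gaps of up to 300 bp were summed as a region. Counts were tested with edgeR 4.0.16 in R 4.3.3: the methylated count carried group effects beside an effect for each library, dispersion was common to all regions, and the quasi-likelihood F test used all 3 groups, with Benjamini-Hochberg adjustment over 142640 regions. Group means were compared by exact two-sided permutation tests. The test was tried on simulated counts first. Other steps ran in Python 3.11.15 with pandas 2.3.3, scipy 1.17.1, matplotlib 3.10.9 and numpy 2.4.6.

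Named regions are the 5 with most cytosines, the 5 with highest coverage, the 3 largest increases and 3 largest decreases without overlap per contrast against NSC, the 2 largest differences between week 1 and day 1, and the 2 with most reads at 30 to 70% in NSC. Others were named for their coverage or density after their values were seen. The extreme-coverage cytosines, the classes and the named rules were chosen with earlier results of these data known. Gene tables of another assembly were not used, so regions carry no gene or sequence. Alternatives were minimum reads of 10 and 20, 10 reads drawn, cytosines in all 13 libraries, pooled reads, medians, each region counted once, every library's own cytosines, coverage limits of 100 and 500, gaps of 100 bp, limma 3.58.1 on percent with and without centring, quasi-binomial regression, 25 points, each library left out in turn, and only the groups compared.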

Additional observations from a re-analysis of the deposited data

Results flagged for a closer look

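Over 78 sets of 4 to 5 libraries, 1 library stood far from the others in 3. Chance alone flags about 1 set in 20, so 3 of 78 is no more than chance gives. The gap between the extreme-coverage and ordinary-coverage means was 15.7504 points in NSC replicate 2, while the other 3 controls had 15.44 to 15.47. At chromosome 10, 73595915 to 73595928, NSC replicate 3 stood at 24.8764% against 17.2% to 18.5% in the others. At chromosome 5, 148399135 to 148399384, day 1 replicate 5 stood at 0.0721% against 0.233% to 0.269%.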

How the results depend on the processing

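No paired analysis was possible because replicates were numbered in accession order. The number of regions called, 188 at day 1 and 108 at week 1, was 76 and 58 at a difference of at least 25 points. Over all regions 4.77% and 2.47% were then called. The number was 53 and 32 with 10 reads drawn, beside 5.67% and 3.57% of all regions. Coverage limits of 100 and 500 changed how many regions were tested, and shares are not given for them. Their counts can therefore not be read against the background. The number called was 396 and 225 at the limit of 100, and 44 and 20 at 500. At 20 or more reads it was 275 (26.3%) at day 1 and 190 (18.2%) at week 1, beside 19.3% and 12.1% of all regions. Between week 1 and day 1, where 0 were called, 3 were called at 10 or more reads and 4 at 20 or more. With cytosines in all 13 libraries 2 were called, with only the groups compared 2, and with gaps of 100 bp 1. In the same order, the shares of all regions were 0.00955%, 0.0817%, 0.0173%, 0.00841% and 0.00768%. Leaving out each library gave 126 to 201, 73 to 125 and 0 to 2 calls. The shares of all regions then ran from 3.24% to 6.59%, 1.43% to 3.35% and 0.0014% to 0.00841%. Over the same left-out libraries the difference of means ran from 4.14 to 4.51 points at day 1, 2.16 to 2.85 at week 1 and -2.18 to -1.50 between them. Without any one NSC or week 1 library the week 1 test cannot reach 0.05. Over the other settings the day 1 difference ran from 2.03 points (20 or more reads) to 7.41 (medians). At 20 or more reads the week 1 difference was 0.580 points, and week 1 minus day 1 was -2.66 with pooled reads and -1.53 with each library's own cytosines, all 3 with an exact permutation p above 0.05; the cause was not tested.

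The difference between groups in the gap, the extreme-coverage mean minus the ordinary mean, changed sign with the setting, and the cause was not tested. For day 1 minus NSC it was -0.505 at 10 or more reads, -2.40 at 20 or more and -0.605 with 10 reads drawn. It was -2.15 with pooled reads, -2.84 with medians, -0.123 over 12 libraries and 1.24 with each library's own cytosines. Of these only -2.40 passed the threshold, with an exact permutation p of 0.0317. For week 1 minus NSC the same settings gave -0.408, -1.55, -0.0701, -1.54, -1.97, -0.603 and -1.02. It was -0.0254 when each region counted once and 0.920 at a coverage limit of 500. Of these only -0.603 and 0.920 passed the threshold, each with an exact permutation p of 0.0286. For week 1 minus day 1 the first 5 gave 0.0974, 0.853, 0.535, 0.607 and 0.872, while own cytosines gave -2.26 and the limit of 500 -0.660, both missing the threshold. Leaving out a library gave 0.870 to 0.978, 0.212 to 0.346 and -0.692 to -0.587. The 12-library setting was chosen after seeing the data. Depth limits day 1 replicate 2 most, with a median of 15 reads.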
